A study of Mus musculus with 6 samples.

Results

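Coagulation starts when tissue factor meets its plasma ligand, and the clot is later dissolved by plasmin, which is cut from plasminogen by urokinase or tissue plasminogen activator. The same proteases act at the surface of bone cells, where they loosen matrix and release growth factors. Serpins hold the activators in check, and thrombomodulin turns thrombin from a clotting enzyme into an activator of the anticoagulant protein C. The 9 genes described here code for the starter of coagulation (F3), its Kunitz-type inhibitors (Tfpi and Tfpi2), the thrombin receptor that limits clotting (Thbd), the plasminogen activators (Plau and Plat), the urokinase receptor (Plaur), a serpin (Serpine2) and thrombospondin-1 (Thbs1). They were taken by symbol from the deposited gene table, and all 9 were found among its 53797 genes.

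MLO-Y4, an immortalised murine cell line with features of osteocytes, was grown in medium with serum and seeded on collagen-coated dishes. The LIPUS group consisted of 3 samples exposed to low-intensity pulsed ultrasound (1.5 MHz, pulsed, 30 mW/cm2) for 20 min, and the Control group of 3 untreated samples of the same line. According to the methods, treated and untreated wells shared a 6-well plate in which part of the transducers was unplugged, and RNA was taken 30 min after the end of stimulation. The authors' table holds 1 FPKM per group, pooled over the libraries of that group, and no value of a single library. There is therefore no SD and no test below. The table gives no read count behind a value (the methods state a sequencing depth per sample, not the reads of each library). Every difference is a description of 2 pooled values, from which no replicate error can be read. The authors' own comparison of the groups was not used. The study describes a Control sample that stood apart from the rest of its group and names ultrasound reaching wells of the shared plate as a possible reason. That sample is part of every Control value below, and its weight cannot be read from pooled values. In RNA from whole cultures, a change in the number of expressing cells and a change in RNA per cell cannot be told apart.

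The osteocyte label was borne out in part by its markers. The FPKM of Pdpn, a glycoprotein of early osteocytes, was 295 in Control and 402 in LIPUS, and that of Dmp1, a matrix phosphoprotein, was 3.04 and 7.65. Phex, a membrane endopeptidase, stood at 0 and 0.190. The other 4 osteocyte markers, Sost, Mepe, Fgf23 and Dkk1, were listed at 0 in both groups. Markers of cells that commonly carry tissue factor or thrombomodulin had low FPKM or were listed at 0. Without read counts, a listed 0 does not show that a gene is silent. The 5 endothelial markers summed to 0.496 FPKM in Control and 0 in LIPUS, with Cdh5, Tek, Tie1 and Kdr at 0 in both. The 5 macrophage markers summed to 7.56 and 2.15 FPKM, most of it from Cd68 (5.32 and 1.72) and Lyz2 (2.01 and 0.189). Ptprc and Adgre1 were at 0 in both. The 5 platelet markers summed to 5.60 and 6.75 FPKM, most of it from Itga2b (3.53 and 4.71) and Ppbp (1.63 and 1.65). Pf4 was at 0 in both. The 4 hepatocyte markers were at 0. The 5 osteoblast markers summed to 1215 FPKM in Control and 941 in LIPUS, most of it from Col1a1 at 891.5 and 731.1 (ratio 0.820). Alpl stood at 293.0 and 190, Runx2 at 24.4 and 14.8 and Sp7 at 5.86 and 3.75. Bglap went the other way, from 0 to 1.58. The part of these markers in the differences described below was not tested.

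Promoter sequences of 5 of the 9 genes could be matched in the RefSeq table (GRCm38.p6), which gave 8 promoters because Tfpi and Tfpi2 have several starts. Plau, Plat, Thbd and Thbs1 had no entry. The 250 bases before each start were searched on both strands for the AP-1 motif TGANTCA, the Egr motif GCGNGGGCG, the GC box GGGCGG, the cyclic AMP element TGACGTCA, the TATA motif TATAAA and the CArG box. AP-1 and Egr proteins are early response factors, and the promoters of F3, Plaur and Tfpi2 are shown because they are the 3 that hold the AP-1 motif. Capitals mark the AP-1 and Egr motifs. The sequences read 5′ to 3′ on the strand of the gene, up to the base before the RefSeq start of the transcript, or 1 base short of it for Tfpi2.
F3, chr3:121723287-121723536, plus strand: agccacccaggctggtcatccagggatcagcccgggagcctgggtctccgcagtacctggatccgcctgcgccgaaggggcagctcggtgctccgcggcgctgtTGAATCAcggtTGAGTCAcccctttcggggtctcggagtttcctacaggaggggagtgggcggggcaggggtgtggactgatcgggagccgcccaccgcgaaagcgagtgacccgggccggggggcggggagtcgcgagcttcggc
Plaur, chr7:24462233-24462482, plus strand: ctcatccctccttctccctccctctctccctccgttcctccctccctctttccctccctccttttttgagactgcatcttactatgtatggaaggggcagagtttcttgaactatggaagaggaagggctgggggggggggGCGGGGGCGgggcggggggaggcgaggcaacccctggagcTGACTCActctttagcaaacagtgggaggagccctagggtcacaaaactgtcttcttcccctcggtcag
Tfpi2, chr6:3968377-3968625, minus strand: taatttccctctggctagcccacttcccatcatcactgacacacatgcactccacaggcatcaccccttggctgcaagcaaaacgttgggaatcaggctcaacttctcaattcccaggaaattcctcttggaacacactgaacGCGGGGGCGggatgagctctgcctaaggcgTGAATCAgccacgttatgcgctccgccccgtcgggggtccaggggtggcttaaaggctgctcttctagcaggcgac

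The F3 promoter held 2 AP-1 motifs, which begin 146 and 135 bases before the start, and the Plaur promoter held 1, at 69 bases. Of the 8 promoters, 3 held the AP-1 motif, against 6.75% of the 32851 promoters of the table. Most of the 8 belong to Tfpi and Tfpi2, and some Tfpi2 windows overlap. The count says nothing about Plau, Plat, Thbd and Thbs1. The Egr motif stood 109 bases before the start of Plaur, 107 before that Tfpi2 start and 17 before that of Serpine2, and 4.70% of all promoters hold it. The Egr motif overlapped a GC box in each of these promoters. GC boxes were found in F3 (3), Plaur (3), Serpine2 (6), both Tfpi promoters (1 each) and a single Tfpi2 promoter (2), and in 32.7% of the table. One Tfpi promoter held the TATA motif (12.4% of the table), and neither the cyclic AMP element (1.55%) nor the CArG box (1.47%) occurred in these windows. A match is a stretch of letters and does not show that a factor bound there.

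The 9 genes took up 0.332% of all FPKM in Control and 0.401% in LIPUS, a sum of 1984 and 2473 FPKM. The status OK, which marks genes with enough alignments for the authors' comparison, was given to 8145 genes, whose higher group lay at 6.70 FPKM or above. Of the 9 genes 7 had the status OK. Tfpi and Tfpi2 did not, and are left out of the counts that follow. The background was the 8143 genes with status OK and an FPKM above 0 in both groups. The 9 genes were chosen with earlier results of these data known. The shares set against the background therefore describe these genes and are no test of the group. All 7 genes had a higher FPKM in LIPUS than in Control, against 50.8% of the background. A ratio of at least 1.5 was reached by 2 of the 7 (F3 and Plau), against 4.70% of the background, and by none in the downward direction, against 4.69%. At least 25% higher were 4, which adds Plat and Plaur (background 13.6%), and a ratio of 2 was reached by F3 alone (1.08%). The median log2 ratio of the 7 genes was 0.33, and that of the background 0.00433. Because abundant genes as a class lay slightly above 0, the 5 genes with a geometric mean of at least 100 FPKM (Plau, Plat, Plaur, Thbd and Thbs1) were also set against the 942 background genes of that abundance. Of these 942, 63.1% were higher in LIPUS and 2.65% by at least 1.5 times, with a median log2 ratio of 0.05, and the 5 genes had a median of 0.33.

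**Figure D1:**
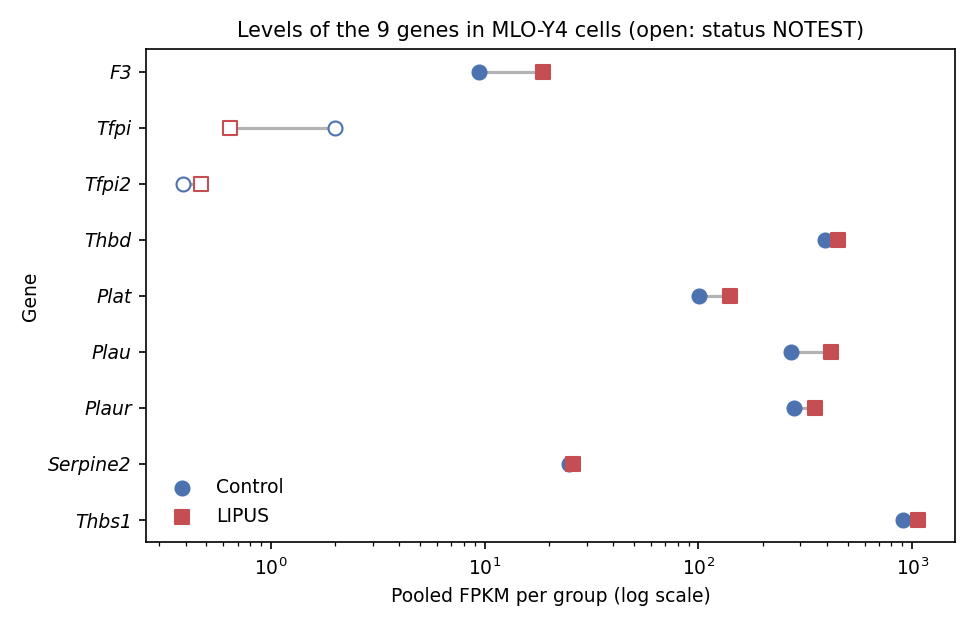
Pooled FPKM of each of the 9 genes on a log axis, with a circle for Control and a square for LIPUS, open where the status is NOTEST. The square lies to the right of the circle for 8 genes, by most for F3 (9.41 to 18.8 FPKM), and to the left for Tfpi, which is at 2.01 FPKM or less.

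F3 codes for tissue factor, the membrane receptor of factor VII that starts coagulation and also signals into the cell. It lies on the plus strand of chromosome 3 (121723537 to 121735048, GRCm38). Its FPKM was 9.41 in Control and 18.8 in LIPUS, a ratio of 2.0 and a log2 ratio of 1.0. This was the largest upward ratio of the 9 genes and ranked 87 among the 8143 background genes. F3 was also the least abundant of the 7 genes with status OK. In Control 15.6% of the genes with status OK had a lower FPKM than F3, and in LIPUS 43.6%. Genes of lower abundance scatter more, and the 5th and 95th percentiles of the log2 ratio were -0.59 and 0.58 among the 7201 background genes under 100 FPKM. That class reaches far above the level of F3, and no range was computed for genes near its level.

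Tfpi and Tfpi2, the inhibitors of the tissue factor pathway, were close to the floor of the table. Tfpi, which blocks activated factor X and the complex of tissue factor with activated factor VII, lies on the minus strand of chromosome 2 (84432855 to 84476775). Its FPKM was 2.01 in Control and 0.644 in LIPUS, a log2 ratio of -1.64. Tfpi2, a matrix-bound Kunitz inhibitor that acts on plasmin as well, lies on chromosome 6 (3962595 to 3988919, minus strand) and had 0.389 and 0.473 FPKM. Both values lie below the 6.70 FPKM that genes with status OK reach, and the ratios of such low values move with small changes. The F3 level was 4.69 times that of Tfpi in Control and 29.3 times in LIPUS on the FPKM scale, which rests on these low Tfpi values.

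Thbd, thrombomodulin, was among the most abundant genes of the group. It is a gene on chromosome 2 (148404466 to 148408188, minus strand) with 393 FPKM in Control and 452 in LIPUS, a ratio of 1.15 and a log2 ratio of 0.20. In Control 97.2% of the genes with status OK had a lower FPKM than Thbd. Of its partners, Procr, the receptor that presents protein C, had 18.5 and 27.5 FPKM, a ratio of 1.49 just under the 1.5 used for the counts. F2r, the main thrombin receptor of the protease-activated family, had 20.0 and 20.7 FPKM (ratio 1.04). The level of Thbd was 41.8 times that of F3 in Control and 24.0 times in LIPUS, and 21.2 and 16.4 times that of Procr. Proc, the gene of protein C itself, was listed at 0 in both groups.

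Plau, urokinase, is the activator that works at the cell surface. It lies on chromosome 14 (20836660 to 20843385, plus strand), and its FPKM was 271 in Control and 416 in LIPUS. The ratio was 1.53 and the log2 ratio 0.62, which ranked 343 among the background genes. With each group rescaled to the same total FPKM, Plau fell below the ratio of 1.5, and F3 remained above it. Plat, tissue plasminogen activator, which works best on fibrin, lies on chromosome 8 (22757727 to 22782844, plus strand). It had 101 FPKM in Control and 141 in LIPUS, a ratio of 1.40 and a log2 ratio of 0.49. Among the 942 abundant background genes the 5th and 95th percentiles of the log2 ratio were -0.28 and 0.48, so that Plau stood above that range and Plat just above its upper end.

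Plaur, the receptor that anchors urokinase to the membrane, had 280 FPKM in Control and 353 in LIPUS, a ratio of 1.26 and a log2 ratio of 0.33. It lies on chromosome 7 (24462484 to 24475968, plus strand). Plau and Plaur were at nearly the same level in Control, with 0.967 Plau per Plaur on the FPKM scale, and this quotient was 1.18 in LIPUS. The FPKM of Plau was 2.69 times that of Plat in Control and 2.95 times in LIPUS. These quotients are of RNA, and amounts of protein cannot be read from them.

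**Figure D2:**
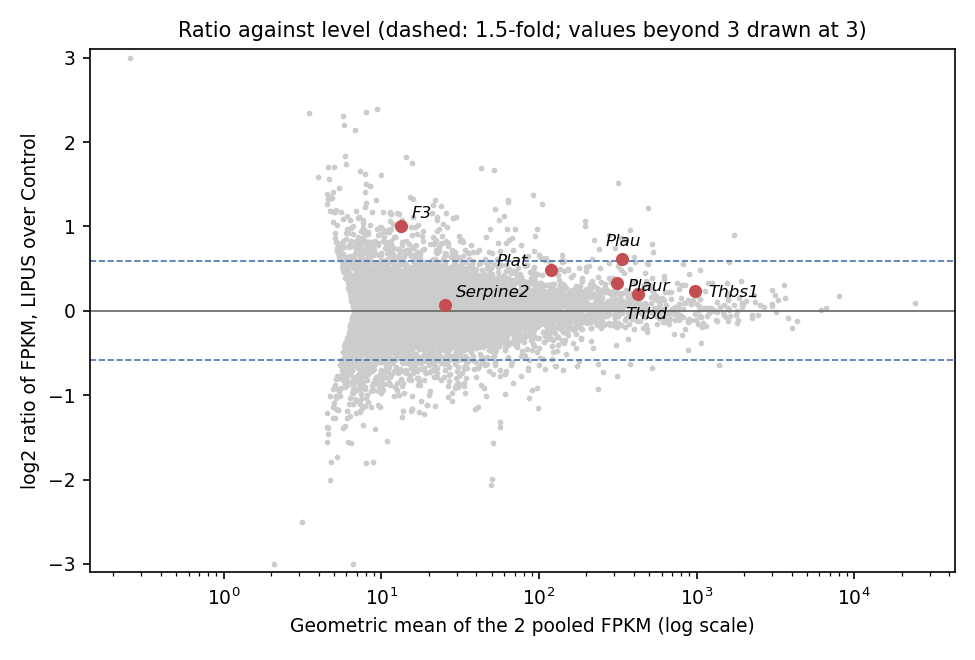
Log2 ratio of FPKM (LIPUS over Control) against the geometric mean of the pooled FPKM on a log axis, with grey points for the genes with status OK and red points for the 7 genes. The red points lie above 0, F3 and Plau above the dashed line of 1.5-fold, and the grey cloud narrows as the level goes up.

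Serpine2, protease nexin-1, inhibits thrombin, urokinase and plasmin. It lies on chromosome 1 (79794197 to 79861180, minus strand) and had 24.8 FPKM in Control and 26.0 in LIPUS, a ratio of 1.05. This was the smallest ratio of the 7 genes, and 60.0% of the background genes had a lower one. Set against the summed FPKM of Plau and Plat (372 in Control, 557 in LIPUS), the level of Serpine2 was 0.0669 times theirs in Control and 0.0468 times in LIPUS.

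Thbs1, thrombospondin-1, is a large matricellular protein of platelets and matrix that binds growth factors and proteases. It was the most abundant of the 9 genes, with 902 FPKM in Control and 1065 in LIPUS, a ratio of 1.18 and a log2 ratio of 0.24. It lies on chromosome 2 (118111876 to 118127133, plus strand), where its exons overlap those of Gm29233 on the opposite strand. The libraries were stranded, but whether the FPKM used the strand is not given in the sources used here, and the share of Gm29233 in the value is unknown. The exons of the other 8 genes overlap no other annotated gene. Thbs2, the closest relative of Thbs1, had 469 and 491 FPKM, so that Thbs1 was 1.92 times as abundant in Control and 2.17 times in LIPUS. Thbs3 had 25.2 and 20.4 FPKM. Cd47, a receptor of thrombospondin-1, had 27.0 FPKM in Control and 17.9 in LIPUS.

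AU-rich pentamers (ATTTA) in the 3' UTR are a feature of many messages with short lives. Of the 7 genes with status OK 6 carry at least 1, all but Serpine2, and so do 65.4% of the genes with status OK and a 3' UTR, so that this count says little about the 7 genes. The feature was looked at after the log2 ratios were known, so that its relation to them is a description. A stretch of 30 bases is shown for the 4 genes with the most pentamers per kb among the 7 with status OK. It holds the longer motif TTATTTATT where the message has it, and otherwise the most pentamers. Capitals mark the pentamers, which run together in Thbd, and the transcripts are those of GENCODE M21 with the longest coding sequence.
F3, bases 678 to 707 of the 3' UTR: tgtatatATTTAcataaaATTTAaaggttt
Plaur, bases 205 to 234 of the 3' UTR: tgttattgctctaATTTAttatataaatat
Thbd, bases 1645 to 1674 of the 3' UTR: tatttgtacatATTTATTTAttggagtttc
Thbs1, bases 1125 to 1154 of the 3' UTR: gtaaatacagattATTTAttaaccctgttc

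F3 had 7 pentamers in a 3' UTR of 809 bases, or 8.65 per kb, and 98.4% of the genes with status OK had fewer per kb. Serpine2 had 0 in 808 bases. Among the 7 genes with status OK, Plaur followed F3 with 4.03 per kb, then Thbd with 4.01, Thbs1 with 2.85, Plat with 2.71 and Plau with 2.14. The median was 2.85 per kb over the 7 genes and 1.24 over the 7879 genes with status OK and a 3' UTR. The longer motif TTATTTATT occurred in Thbd and Thbs1, and in 6.54% of those genes. Among these 7, F3 and Serpine2 were highest and lowest in both pentamers per kb and log2 ratio, but Plau and Plat, with the next largest log2 ratios, had fewer pentamers per kb than Plaur, Thbd and Thbs1. Over all genes with status OK the median log2 ratio was 0.01 for the 2727 genes without a pentamer, -0.01 for the 2358 genes with fewer than 2 per kb, -0.003 for the 1871 genes with 2 to under 4 per kb, 0.03 for the 923 genes with at least 4 per kb and 0.055 for the 155 of these with at least 8 per kb. Of the genes with status NOTEST, Tfpi had 0 pentamers in 241 bases and Tfpi2 had 4 in 785, or 5.10 per kb.

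**Figure D3:**
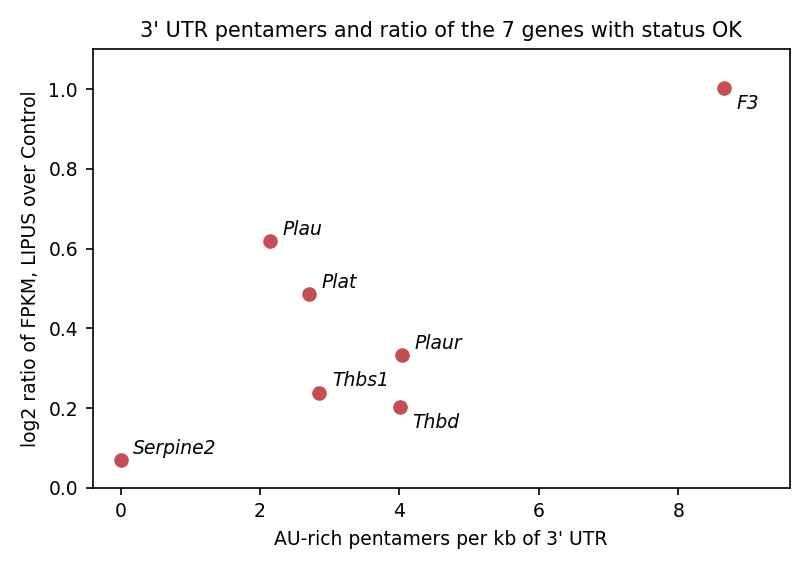
Log2 ratio of FPKM (LIPUS over Control) of the 7 genes with status OK against the number of AU-rich pentamers per kb of 3' UTR. F3 lies at 8.65 per kb and a log2 ratio of 1.0, Serpine2 at 0 per kb and 0.07, and the other 5 genes lie in between, with Plau and Plat higher in ratio but lower in density than Plaur and Thbd.

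The remainder of the pathway was read from lists of 56 further genes, of which 22 had the status OK and 22 were listed at 0 in both groups. Among the 22 with status OK, a ratio of at least 1.5 was found upward in 3 genes (Vtn, Kng1 and F13a1) and downward in 1 (Cd47), beside the background shares given above. The median log2 ratio was 0.06, and 14 of the 22 were higher in LIPUS, against 50.8% of the background. The lists too were chosen with earlier results of these data known. Vtn codes for vitronectin, a plasma and matrix protein that binds Plaur. Its FPKM was 7.59 in Control and 26.9 in LIPUS, a ratio of 3.54. Kng1, kininogen, had 7.53 and 17.0 FPKM (ratio 2.26), a value that is uncertain because mouse has the close copy Kng2. F13a1, the chain of factor XIII that cross-links fibrin, had 118 and 178 FPKM (ratio 1.51), and its exons overlap those of Gm30489 on the opposite strand. With each group rescaled to the same total FPKM F13a1 fell below the ratio of 1.5, which left 2 genes upward. Cd47 (ratio of Control to LIPUS 1.51) was no longer past it with upper quartile rescaling or a pseudocount of 1.

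Of the 7 anticoagulant genes 3 had the status OK and of the 4 thrombin and protease receptors 1. None of these 4 reached a ratio of 1.5, which says little, since few background genes did (4.70% upward and 4.69% downward). Of the 7 further serpins and inhibitors of fibrinolysis 4 were at 0 in both groups, and Serpinb6a alone had the status OK, with 244 FPKM in Control and 248 in LIPUS. Of the 6 further thrombospondins and receptors 3 had this status, with a median log2 ratio of -0.30 over Thbs2, Thbs3 and Cd47.

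The genes of the circulating proteins were mostly listed at 0, which does not show that they are silent, since the table gives no read counts. Of all 53797 genes, 16476 lay above 0 in either group, so most genes were listed at 0 in both. The counts at 0 below therefore say little about these genes in particular. Of the 16 coagulation factors and related plasma proteins, 12 were at 0 in both groups, among them F2, F7, F10 and the fibrinogen chains Fga, Fgb and Fgg, and so was Plg, the gene of plasminogen. The surface proteins that gather plasminogen had nearly the same FPKM in both groups, at an abundant level for Anxa2 and S100a10 and a lower one for Plgrkt. Anxa2 had 823 FPKM in Control and 780 in LIPUS (ratio 0.947), its partner S100a10 had 591 and 558 (0.943), and the plasminogen receptor Plgrkt had 20.8 and 20.1 (0.967). Lrp1, the receptor that clears complexes of activators with serpins, had 404 and 426 FPKM (1.06). Of the 9 substrates and partners of urokinase 6 had the status OK. None of the 6 reached a ratio of 1.5 (background 4.70% upward and 4.69% downward), and their median log2 ratio was 0.19. Of these, Itga5, the alpha chain of the fibronectin receptor, had 545 and 709 FPKM (ratio 1.30). Hgf, a growth factor that urokinase can activate, had 20.3 and 24.5 (1.21). The exons of Hgf overlap those of Gm43489 on the same strand, and the share of Gm43489 in the value is unknown. Itgb3, the beta chain of the vitronectin receptor, had 9.41 and 6.94 FPKM (0.737).

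**Figure D4:**
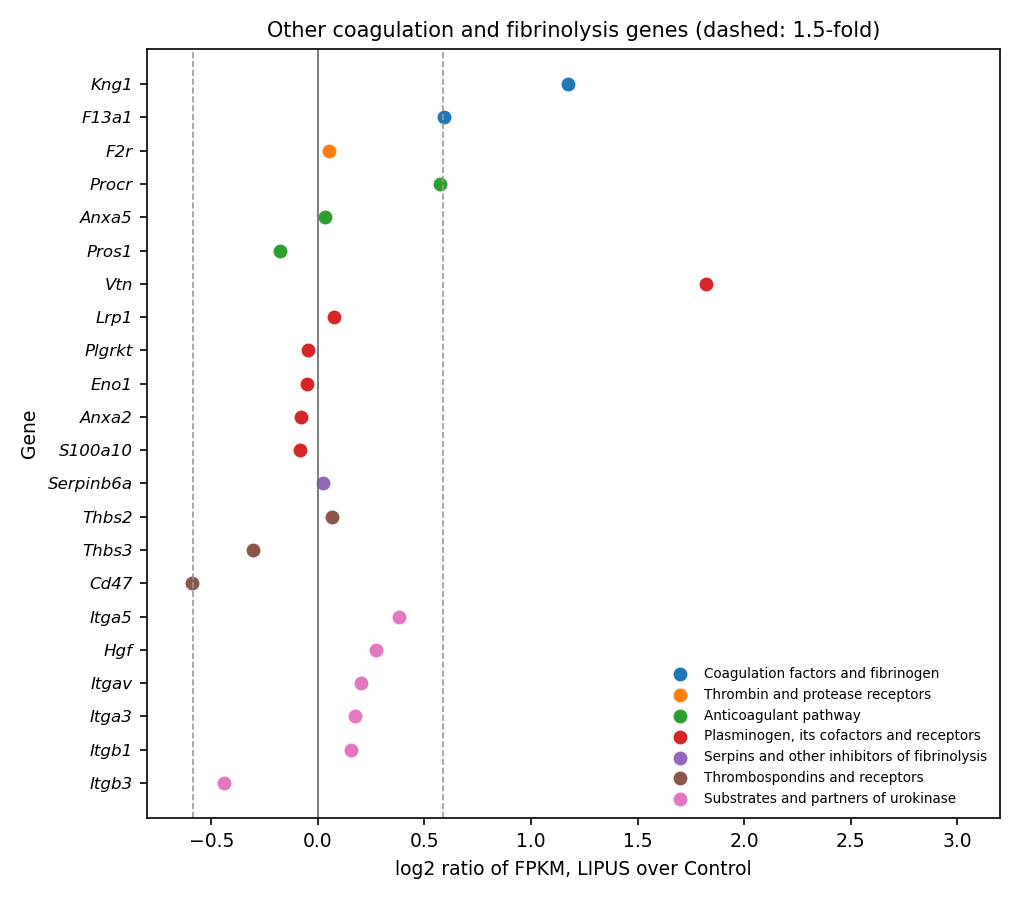
Log2 ratio of FPKM (LIPUS over Control) of the 22 further pathway genes with status OK, coloured by list, with dashed lines at 1.5-fold. Vtn and Kng1 lie to the right of the line at 1.82 and 1.17, and most others lie between the lines.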

How the data were processed

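RNA of 3 LIPUS and 3 Control samples was sequenced as paired-end 100-base reads from stranded mRNA libraries. The authors' pipeline ran Trimmomatic 0.36 on the reads, then TopHat 2.1.0 over bowtie 2.2.6.0 against GRCm38. They deposited FPKM values from Cufflinks (2.2.1 in the methods, 2.1.1 in the submitters' processing notes), 1 per group, in a Cuffdiff table. Its columns of fold change, test statistic, p and q hold the authors' own comparison and were not used.

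The log2 ratio of the pooled FPKM, without a pseudocount, was computed for genes above 0 in both groups. Among those with status OK, genes past a ratio of 1.5 were counted in each direction. No test was run, since no value of a single library is given. Named are the 9 genes, 7 fixed pathway genes (F2r, Plg, Plgrkt, S100a10, Anxa2, Procr and Lrp1) and the pathway genes past the ratio. A further pathway gene is not reported here and was left out of the lists. Serpinb6a, Proc, Thbs2, Thbs3, Itga5, Hgf, Itgb3, F2, F7, F10, Fga, Fgb and Fgg were named after their values were seen. The members and lists were chosen with earlier results of these data known, and the abundance class and the sequence motifs after the values were seen. Positions, transcripts and 3' UTRs are from GENCODE M21 (GRCm38), matched by gene identifier. Python 3.11.15, numpy 2.4.6, pandas 2.3.3 and matplotlib 3.10.9 were used, and the ratio step was tested on simulated data.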

Additional observations from a re-analysis of the deposited data

How the results depend on the processing

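The alternatives were pseudocounts of 0.1 and 1, centring on the median gene, rescaling to a common total or upper quartile, other filters on low FPKM, and thresholds of 25% higher and of a ratio of 2 (with their inverse for lower genes). The log2 ratios of the 7 genes with status OK moved by at most 0.07 and stayed above 0, the lowest being 0.02. The median of the genes kept in each setting lay between 0.28 and 0.41, including settings that left out each of the 7 genes in turn. The lowest median came with all genes above 0 in both groups, which adds Tfpi and Tfpi2. Since no spread between libraries is known, a move under 0.1 was counted as none. Tfpi went from -1.64 to -1.50 and -0.87 with pseudocounts of 0.1 and 1, and Tfpi2 from 0.28 to 0.084 with the latter. The count of higher genes among the 9 was 1 after rescaling to a common total, 4 at the threshold of 25% and 1 at a ratio of 2. With all genes above 0, or those with an FPKM of at least 1, 1 gene was lower (Tfpi). Of the further pathway genes, 7 were higher and 2 lower with all genes above 0, and 5 higher and 2 lower at the threshold of 25%. After rescaling to a common total 2 were higher, without F13a1. With a pseudocount of 1, with upper quartile rescaling and at a ratio of 2, 0 were lower. No paired analysis was possible because the table holds no value of a single library, and for the same reason no replicate could be left out. The table gives no read counts, and Tfpi and Tfpi2 have low FPKM and the status NOTEST.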
